A study of Mus musculus with 12 samples.

Results

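The genes described here encode the core of the spliceosome and the proteins that guide it. They were the protein-coding genes whose names begin with Srsf, Hnrnp, Sf3a, Sf3b, Snrp or Prpf in the authors' expression table, which gave 63 of 14852 listed genes and 63 of 11830 listed protein-coding genes. The Srsf names held 10 genes, the Hnrnp names 20, the Sf3a and Sf3b names 9, the Snrp names 11 and the Prpf names 13. The cells were ID8, a mouse ovarian cancer line that arose from cultured ovarian surface epithelium, and they were treated with cisplatin, a platinum drug that crosslinks DNA, or kept as controls, with the dose and time not given in the sources used here. Part of the fragmented RNA was kept as input and part was pulled down (IP) with an antibody to N4-acetylcytidine (ac4C), a cytidine modification written by the acetyltransferase NAT10, and the study asked how ac4C takes part in the cisplatin response. The 12 libraries formed 4 groups of 3, namely cisplatin IP, cisplatin input, control IP and control input. All 12 came from a single cell line. The labels do not describe the replicates of a group as separate cultures, and p-values therefore reflect only a spread between libraries that may be technical. Levels are given as FPKM (fragments scaled by gene length and library depth) in the 6 input libraries, and the IP libraries are represented by the deposited peak table alone, which has 1 comparison over all libraries and no value per library.

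The spliceosome removes introns in steps. The U1 particle recognises the start of an intron and the U2 particle its branch point, the tri-snRNP of U4, U6 and U5 then joins, and a complex around PRPF19 helps activate the assembled machine. Each of U1, U2, U4 and U5 is a small nuclear RNA on a ring of Sm proteins with its own added proteins, while SR proteins generally favour and hnRNP proteins often oppose the use of an exon. Many of these genes adjust their own output through exons whose inclusion sends the RNA to decay.

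Promoter windows of the 5 members with the largest increases that had a single window in the RefSeq table (GRCm38.p6) are shown, because these genes had the largest increases with cisplatin. Each runs from 250 bases before to 50 bases after a transcript start, 5′ to 3′ on the strand of the gene. Capitals mark any of 7 short motifs on either strand: the ETS core CCGGAA, the GC box GGGCGG, the CCAAT box CCAAT, the TATA box TATAAA, the E-box CACGTG, the cAMP response motif TGACG and the NRF1 motif TGCGCA. No motif of this set contains another.
Sf3b6, chr12:4817358-4817657, plus strand: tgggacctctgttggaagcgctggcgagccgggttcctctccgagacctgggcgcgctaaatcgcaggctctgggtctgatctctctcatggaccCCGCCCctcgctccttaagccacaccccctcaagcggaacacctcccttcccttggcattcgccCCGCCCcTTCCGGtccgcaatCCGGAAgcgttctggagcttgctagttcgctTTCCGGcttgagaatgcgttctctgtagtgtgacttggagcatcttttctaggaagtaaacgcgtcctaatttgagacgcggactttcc
Snrpb2, chr2:143062819-143063118, plus strand: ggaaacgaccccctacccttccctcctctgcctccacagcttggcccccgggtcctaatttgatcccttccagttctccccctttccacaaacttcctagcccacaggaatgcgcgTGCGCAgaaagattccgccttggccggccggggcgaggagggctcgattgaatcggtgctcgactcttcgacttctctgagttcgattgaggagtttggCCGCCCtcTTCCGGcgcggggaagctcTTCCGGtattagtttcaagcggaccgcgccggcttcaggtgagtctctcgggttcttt
Hnrnpa1, chr15:103240147-103240446, plus strand: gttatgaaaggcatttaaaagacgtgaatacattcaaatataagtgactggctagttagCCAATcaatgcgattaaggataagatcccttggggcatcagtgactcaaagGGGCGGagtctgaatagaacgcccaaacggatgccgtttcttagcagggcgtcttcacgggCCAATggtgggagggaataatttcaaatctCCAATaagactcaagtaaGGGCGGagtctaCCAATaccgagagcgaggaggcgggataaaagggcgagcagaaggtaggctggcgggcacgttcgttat
Prpf38a, chr4:108579287-108579586, minus strand: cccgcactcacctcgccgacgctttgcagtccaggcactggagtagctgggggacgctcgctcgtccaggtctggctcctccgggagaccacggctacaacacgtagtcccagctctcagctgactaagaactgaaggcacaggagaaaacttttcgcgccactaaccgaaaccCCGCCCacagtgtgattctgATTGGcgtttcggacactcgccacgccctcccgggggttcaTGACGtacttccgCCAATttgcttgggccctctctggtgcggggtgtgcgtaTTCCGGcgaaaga
Prpf4, chr4:62408533-62408832, plus strand: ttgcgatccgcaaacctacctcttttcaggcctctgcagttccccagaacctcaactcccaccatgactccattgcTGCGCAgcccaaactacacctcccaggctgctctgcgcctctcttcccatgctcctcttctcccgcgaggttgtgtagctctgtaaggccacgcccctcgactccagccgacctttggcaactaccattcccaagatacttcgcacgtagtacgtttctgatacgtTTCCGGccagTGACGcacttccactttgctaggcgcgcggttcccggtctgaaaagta
ETS core letters lay in the windows of Sf3b6, Snrpb2, Prpf38a and Prpf4, and the window of Hnrnpa1 held CCAAT boxes and GC boxes. The table matched 55 of the 63 genes, with 72 windows. The ETS core was in 36 of these 72 windows, against 29.5% of 10120 windows of tested protein-coding genes and 14.9% of all 32851 windows. GC boxes were in 66.7% of the windows of splicing genes, against 65.4% of tested protein-coding and 35.7% of all windows. CCAAT boxes were in 48.6%, against 38.0% and 37.4%. The cAMP response motif was in 48.6%, against 32.5% and 20.8%, and the NRF1 motif in 27.8%, against 14.5% and 7.76%. E-boxes were in 15.3%, against 10.5% and 7.15%, and TATA boxes in 8.33%, against 6.50% and 13.6%. The ETS core was in 45.5% of the 44 windows of members called higher and in 57.1% of the 28 windows of other members. In turn, GC boxes were in 70.5% and 60.7%, CCAAT boxes in 59.1% and 32.1%, and the cAMP response motif in 56.8% and 35.7%. The NRF1 motif was in 27.3% and 28.6%, E-boxes in 6.82% and 28.6%, and TATA boxes in 6.82% and 10.7%. These differences were not tested. Genes with several windows are counted once for each window, and a match of letters does not show that a factor binds.

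The first comparison set the input RNA of cisplatin-treated cells against that of control cells. Splicing genes were mostly higher after cisplatin, by small amounts. Among the 63, all of which passed the filter on low values, 40 were higher with limma at an adjusted p under 0.05, 8 were lower and 15 had no call. Over the 11449 genes tested, 40.1% were higher and 41.1% were lower. The median log2 change was 0.22 over the splicing genes and -0.0028 over all tested genes. The changes were small in size, with a median absolute log2 change of 0.264 for the splicing genes and 0.517 for all tested genes, and 8 members were at least 2-fold higher and 0 at least 2-fold lower. In 49 of the 63 genes the cisplatin and control values did not overlap, and over all tested genes this held for 84.2%. Where a lack of overlap is given for single genes below, it is therefore not particular to them.

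Whether many small changes were called depended on the scaling of the libraries, and the sign turned only in members without a call in the main fit. The 40 higher and 8 lower calls became 30 and 14 after quantile normalization, and 29 and 12 after rescaling all libraries to a common FPKM sum, so that the share of higher genes among called ones was 83.3%, 68.2% and 70.7% in turn. Over all tested genes that share was 49.4%, 48.6% with quantile normalization and 43.6% with a common sum. The median log2 change of the splicing genes was 0.10 with quantile normalization and 0.12 with a common sum. Under both scalings 26 of the 40 higher calls were kept, among them every member named here as at least 2-fold higher. Calls were also made in the authors' deposited table, which rests on a test left undescribed in the labels and headers: it had 39 of the members higher and 7 lower, and 46 of these calls were the same as with limma, while Sf3a3 and Srsf9 were called with limma alone.

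**Figure D1:**
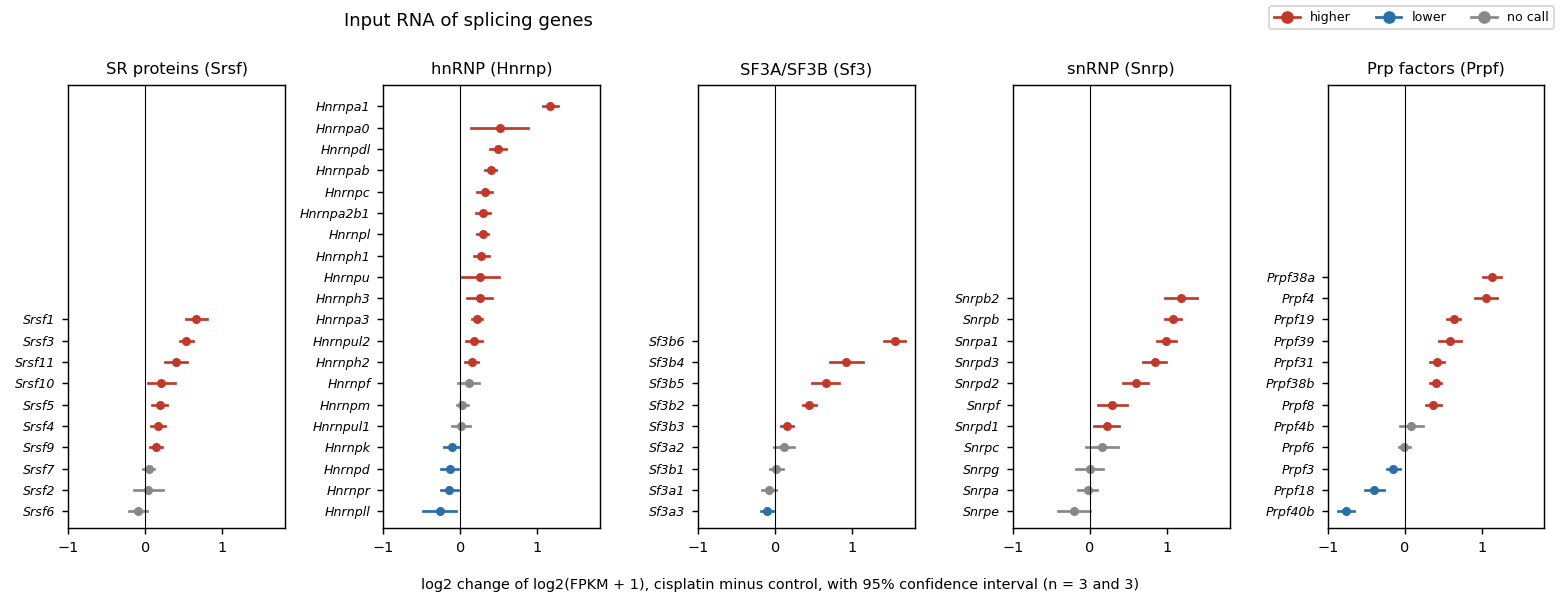
Log2 change of input RNA for 62 of the 63 splicing genes, in panels by gene name, with points for the limma estimate and bars for its 95% confidence interval (x axis: cisplatin minus control on the log2(FPKM + 1) scale, 3 libraries a group). Most points lie right of 0, from -0.76 for Prpf40b to 1.55 for Sf3b6.

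Summed over the 63 genes, input RNA came to 3987, 3881 and 4066 FPKM in cisplatin libraries 1, 2 and 3, against 2862, 2857 and 2867 FPKM in control libraries, a ratio of means of 1.39. The groups did not overlap in this sum. Hnrnpa1 supplied much of the difference, and without it the ratio was 1.21. The cisplatin libraries also had larger FPKM totals. As a share of all listed FPKM, the 63 genes held 1.43%, 1.41% and 1.46% in cisplatin libraries, against 1.10%, 1.10% and 1.11% in controls. Without Hnrnpa1 these shares were 1.03%, 1.03% and 1.05%, against 0.916%, 0.915% and 0.921%. In bulk RNA of this kind, a change in the number of cells of one kind and a change in RNA per cell cannot be told apart.

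In the U2 particle, 7 of 11 members were higher, 1 was lower and 3 had no call. Sf3b6, which encodes a small SF3B protein placed near the branch-point adenosine, had 14.2, 13.4 and 14.1 FPKM in cisplatin libraries, against 4.42, 3.92 and 3.93 FPKM in control libraries. This 3.40-fold difference was the largest among the splicing genes (log2 change 1.55, SE 0.0564, limma adjusted p = 4.34e-07), and the groups lay far apart. Snrpb2, whose product binds a stem-loop of U2 RNA, had 13.9, 11.97 and 15.1 FPKM with cisplatin, against 5.501, 5.82 and 5.01 FPKM in controls (log2 change 1.18, SE 0.0883, adjusted p = 1.08e-05). Snrpa1, which encodes the protein partner of SNRPB2 on U2 RNA, had 14.9, 14.7 and 16.0 FPKM with cisplatin, against 6.99, 7.53 and 6.87 FPKM in controls (log2 change 0.99, SE 0.0522, adjusted p = 1.9e-06). Both partners were thus more than 2-fold higher, and all cisplatin values of each exceeded all control values.

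Sf3b4, whose product contacts RNA upstream of the branch point, had 11.6, 13.4 and 10.2 FPKM in cisplatin libraries, against 5.37, 5.84 and 5.85 FPKM in control libraries (log2 change 0.93, SE 0.0911, adjusted p = 4.78e-05). Sf3b5, a small scaffold subunit, had 5.01, 5.17 and 4.27 FPKM with cisplatin, against 2.73, 2.52 and 2.81 FPKM in controls (log2 change 0.65). The genes of these 3 smaller subunits therefore all rose, without overlap between groups. Of the larger subunits, Sf3b2 had 204, 212 and 197 FPKM with cisplatin, against 151, 150.0 and 149 FPKM in controls, and its log2 change of 0.44 was a modest one. Sf3b3, a large scaffold subunit, had 21.4, 21.2 and 22.2 FPKM with cisplatin, against 19.3, 19.3 and 19.3 FPKM in controls (log2 change 0.16), a call lost with a common sum (log2 change 0.06). Sf3b1, which encodes the subunit that encloses the branch point and is mutated in several cancers, had 29.6, 30.3 and 31.4 FPKM with cisplatin, against 30.2, 29.7 and 30.6 FPKM in controls. Its 95% interval ran from -0.07 to 0.10 on the log2 scale, and the groups overlapped.

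The SF3A genes, whose products link SF3B to the rest of the U2 particle, did not follow these smaller SF3B subunits. Sf3a3 was lower, with 38.3, 36.4 and 38.8 FPKM in cisplatin libraries, against 41.4, 40.5 and 39.98 FPKM in control libraries (log2 change -0.10, adjusted p = 0.0323). This call was lost when any 1 of cisplatin replicates 1 and 2 or control replicates 1, 2 and 3 was left out, with log2 changes from -0.07 to -0.11. Sf3a1 and Sf3a2 had no call, with log2 changes of -0.08 and 0.11. Sf3a1 was called lower with quantile normalization (-0.21, adjusted p = 0.00104), with a common sum (-0.18, adjusted p = 0.00262) and when control replicate 3 was left out (-0.11). Sf3a2 was called higher without cisplatin replicate 3 (0.16, adjusted p = 0.018).

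Of the 7 Sm genes, whose products form the ring of the U1, U2, U4 and U5 particles, 5 were higher, 0 were lower and 2 had no call. Snrpb, which encodes SmB, had 125, 132 and 118 FPKM in cisplatin libraries, against 60.1, 58.0 and 57.8 FPKM in control libraries (log2 change 1.07, SE 0.0446, adjusted p = 7e-07). Snrpd3, whose product pairs with SmB in the ring, had 23.1, 23.7 and 20.8 FPKM with cisplatin, against 11.7, 11.8 and 13.0 FPKM in controls (log2 change 0.84). Snrpd2, for SmD2, had 21.2, 21.2 and 17.9 FPKM with cisplatin, against 13.0, 12.9 and 13.0 FPKM in controls (log2 change 0.59). The SmB and SmD3 partner genes thus had the largest increases of the ring, and none of these 3 genes overlapped between groups.

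Smaller increases were found for Snrpf and Snrpd1. Snrpf, for SmF, had 94.0, 96.9 and 114 FPKM in cisplatin libraries, against 77.1, 85.6 and 86.1 FPKM in control libraries (log2 change 0.29). Snrpd1, for SmD1, had 70.2, 64.99 and 78.1 FPKM with cisplatin, against 62.5, 58.1 and 62.3 FPKM in controls (log2 change 0.22). Both calls were lost under both other scalings, and that of Snrpd1 also without control replicate 2. Snrpg, for SmG, had no call and a log2 change of -0.01, and Snrpe, for SmE, had no call in the same test with 18.7, 14.9 and 18.7 FPKM with cisplatin, against 21.1, 19.4 and 20.2 FPKM in controls (log2 change -0.21, adjusted p = 0.0595). With quantile normalization, with a common sum, with voom, and without cisplatin replicate 1 or cisplatin replicate 3, Snrpe was called lower (log2 changes from -0.23 to -0.30).

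**Figure D2:**
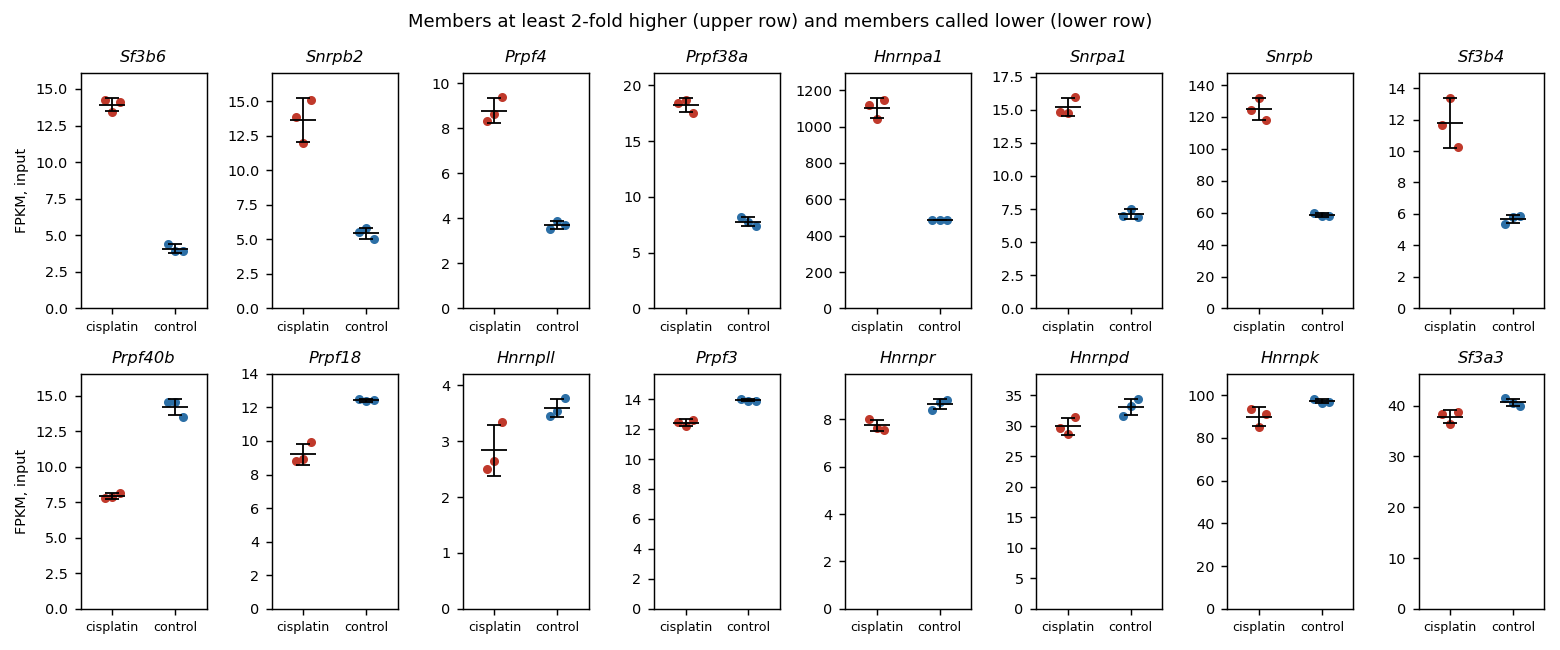
Input FPKM of the 8 splicing genes at least 2-fold higher (upper row) and the 8 called lower (lower row), with a point for each library, a line for the mean and bars for the SD (n = 3 a group; each panel has its own y axis from 0). The groups do not overlap in any of the 16 panels, but these genes were chosen by the same values, and 84.2% of all tested genes show no overlap. The gaps in the lower row are narrow apart from Prpf40b and Prpf18.

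In the U1 particle, 2 of 5 members were higher, 1 was lower and 2 had no call. Prpf40b, a relative of a yeast U1 protein that bridges the ends of the intron, had 7.80, 7.85 and 8.17 FPKM in cisplatin libraries, against 14.5, 14.5 and 13.5 FPKM in control libraries, the largest decrease among the splicing genes (log2 change -0.76, SE 0.046, adjusted p = 3.52e-06). Prpf39, which encodes a U1-associated factor, had 4.51, 4.34 and 4.72 FPKM with cisplatin, against 2.65, 2.54 and 2.86 FPKM in controls (log2 change 0.59). Snrpa and Snrpc, the U1-A and U1-C genes, overlapped between groups and had log2 changes of -0.03 and 0.15, and with quantile normalization Snrpa was called lower (-0.14) and Snrpc higher (0.24). Snrpc was also called higher without cisplatin replicate 2 (0.22). The spans of 22 of the 63 members overlapped that of another gene. Among them were Prpf40b (with Fam186b) and the higher Prpf39 (Fkbp3), Prpf38a (Orc1), Sf3b4 (Gm22027) and Snrpd3 (Gm35061). Whether the counting used strand was not stated in the labels or headers.

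In the tri-snRNP, 3 of 5 members were higher, 1 was lower and 1 had no call. Prpf4, which encodes a protein of the U4/U6 part, had 8.32, 8.66 and 9.39 FPKM in cisplatin libraries, against 3.52, 3.89 and 3.73 FPKM in control libraries (log2 change 1.05, SE 0.0613, adjusted p = 3.02e-06). Its product binds PRPF3, whose gene moved the other way, with 12.5, 12.2 and 12.6 FPKM with cisplatin, against 14.04, 13.9 and 13.9 FPKM in controls (log2 change -0.15, adjusted p = 0.00505). Prpf8, the large U5 protein at the catalytic centre, had 97.7, 103 and 93.3 FPKM with cisplatin, against 73.7, 76.1 and 76.8 FPKM in controls (log2 change 0.37). Prpf31, a U4/U6 protein whose loss causes retinal degeneration in people, was higher by 0.42 on the log2 scale. Prpf6, a bridge between U5 and U4/U6, had a log2 change of -0.01 and no call, and was called lower with quantile normalization (-0.18) and with a common sum (-0.11).

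Among the 5 factors of activation and catalysis, 3 were higher, 1 was lower and 1 had no call. Prpf38a, needed for activation after the tri-snRNP has joined, had 18.4, 18.7 and 17.5 FPKM in cisplatin libraries, against 8.17, 7.71 and 7.38 FPKM in control libraries (log2 change 1.13, SE 0.0498, adjusted p = 8.72e-07). Its relative Prpf38b was higher by 0.40. Prpf19, the ubiquitin ligase at the head of the activating complex, had 51.9, 54.0 and 50.1 FPKM with cisplatin, against 33.2, 33.3 and 32.8 FPKM in controls (log2 change 0.63). Prpf18, a factor of the later catalytic step, was lower, with 8.80, 8.90 and 9.91 FPKM with cisplatin, against 12.5, 12.4 and 12.4 FPKM in controls (log2 change -0.40, adjusted p = 0.000241). Prpf18, Prpf3 and Prpf40b were the 3 lower calls that held under every alternative, out of 8. Prpf4b, a kinase of the tri-snRNP proteins, had a log2 change of 0.08 and no call.

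The SR protein genes showed 7 higher calls, 0 lower and 3 with no call among 10. Srsf1, the prototype SR protein, had 52.4, 50.3 and 57.8 FPKM in cisplatin libraries, against 32.0, 33.2 and 35.0 FPKM in control libraries (log2 change 0.66, SE 0.0592, adjusted p = 2.78e-05). Srsf3, the smallest SR protein, had 34.8, 35.0 and 34.5 FPKM with cisplatin, against 24.7, 23.6 and 22.9 FPKM in controls (log2 change 0.53). Srsf11 had 26.4, 24.5 and 29.0 FPKM with cisplatin, against 20.3, 19.9 and 19.8 FPKM in controls (log2 change 0.39). These 3 were higher in every cisplatin library than in any control library, and they were the 3 SR calls that held under both scalings.

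The other SR calls were smaller. Srsf5, the SR gene with the highest FPKM, had 78.4, 72.9 and 74.0 FPKM in cisplatin libraries, against 67.9, 64.0 and 65.9 FPKM in control libraries (log2 change 0.18). Srsf4 had 22.7, 23.0 and 21.6 FPKM with cisplatin, against 20.2, 19.8 and 19.4 FPKM in controls (log2 change 0.17). Srsf9 had 32.0, 32.4 and 31.3 FPKM with cisplatin, against 29.0, 29.3 and 28.3 FPKM in controls (log2 change 0.14). The groups of these 3 genes did not overlap. Srsf10 was higher by 0.21, although its groups overlapped, with 21.2, 18.6 and 22.9 FPKM with cisplatin, against 17.5, 17.5 and 18.9 FPKM in controls. With a common sum all 4 of these calls were lost, and with quantile normalization those of Srsf5, Srsf9 and Srsf10. That of Srsf10 was also lost without cisplatin replicate 1 or 3 or control replicate 1 or 2 (log2 changes from 0.14 to 0.19). Srsf2, Srsf6 and Srsf7 had no call, with log2 changes of 0.04, -0.10 and 0.04, and Srsf7 turned to a lower call with quantile normalization (log2 change -0.12, adjusted p = 0.00678). Srsf6 was called lower with quantile normalization (-0.25, adjusted p = 0.00169), with a common sum (-0.20, adjusted p = 0.00555) and without cisplatin replicate 3 (-0.15, adjusted p = 0.00982).

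Among the hnRNP genes, 13 of 20 were higher, 4 were lower and 3 had no call. Hnrnpa1, an abundant shuttling repressor of exons, had 1117, 1039.6 and 1144 FPKM in cisplatin libraries, against 488, 489 and 486 FPKM in control libraries. It was the most abundant of the splicing genes in each library, and the groups were 2.26-fold apart (log2 change 1.17, SE 0.0434, adjusted p = 4.56e-07). The deposited table also lists the pseudogenes Hnrnpa1l2-ps and Hnrnpa1l2-ps2, at no more than 1.16 FPKM in any library. How reads shared between Hnrnpa1 and its copies were assigned was not stated, so its level is uncertain to that extent. Without Hnrnpa1 the summed hnRNP level was 1248, 1219 and 1282 FPKM with cisplatin, against 1085, 1081 and 1089 FPKM in controls, a ratio of means of 1.15. As a share of all listed FPKM this was 0.448%, 0.443% and 0.460% with cisplatin, against 0.418%, 0.417% and 0.421% in controls.

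The relatives of Hnrnpa1 rose less. Hnrnpa0 had 9.83, 10.7 and 14.6 FPKM in cisplatin libraries, against 6.50, 7.99 and 9.13 FPKM in control libraries (log2 change 0.51, adjusted p = 0.0184), and its call was lost without control replicate 1 (log2 change 0.40). Hnrnpa2b1, a close relative of Hnrnpa1, was higher by 0.30 and Hnrnpa3 by 0.22 on the log2 scale. Hnrnpdl had 41.4, 39.2 and 43.6 FPKM with cisplatin, against 29.0, 29.8 and 28.9 FPKM in controls (log2 change 0.49), whereas the related Hnrnpd, also called AUF1, a factor in decay of AU-rich RNAs, was lower with 29.7, 28.7 and 31.5 FPKM with cisplatin, against 31.7, 33.2 and 34.4 FPKM in controls (log2 change -0.14). Smaller increases were called for Hnrnpab (0.39), Hnrnpc (0.32), which binds uridine tracts, Hnrnpl (0.29), Hnrnph1 (0.28), Hnrnpu (0.26), Hnrnph3 (0.25), Hnrnpul2 (0.18) and Hnrnph2 (0.15), all on the log2 scale. The calls of Hnrnpu, Hnrnph2 and Hnrnpul2 were lost under both other scalings, those of Hnrnph1 and Hnrnpa3 with quantile normalization and that of Hnrnph3 with a common sum. Hnrnpu also lost its call with no filter on low values and without any 1 of the control replicates (log2 changes from 0.23 to 0.30).

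The other lower hnRNP calls were Hnrnpll, Hnrnpr and Hnrnpk. Hnrnpll, a regulator of alternative splicing in lymphocytes, had 2.51, 2.64 and 3.35 FPKM in cisplatin libraries, against 3.45, 3.55 and 3.78 FPKM in control libraries (log2 change -0.27, adjusted p = 0.0276). The Hnrnpll call was lost with quantile normalization (log2 change -0.17) and without cisplatin replicate 1 or 2 or control replicate 2 or 3. Hnrnpr had 8.02, 7.64 and 7.57 FPKM with cisplatin, against 8.39, 8.73 and 8.82 FPKM in controls (log2 change -0.14). Hnrnpk, a cytidine-tract binding protein that also takes part in the p53 response, was lower by a log2 change of -0.11. These were small differences, and without control replicate 2 or control replicate 3 the count of lower hnRNP genes was 0. Without cisplatin replicate 1 it was 2, and without cisplatin replicate 2 it was 1. Hnrnpf, Hnrnpm and Hnrnpul1 had no call, with log2 changes of 0.11, 0.03 and 0.01. Hnrnpm turned to a lower call with quantile normalization (log2 change -0.21), and Hnrnpf to a higher one without cisplatin replicate 3 (log2 change 0.17).

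**Figure D3:**
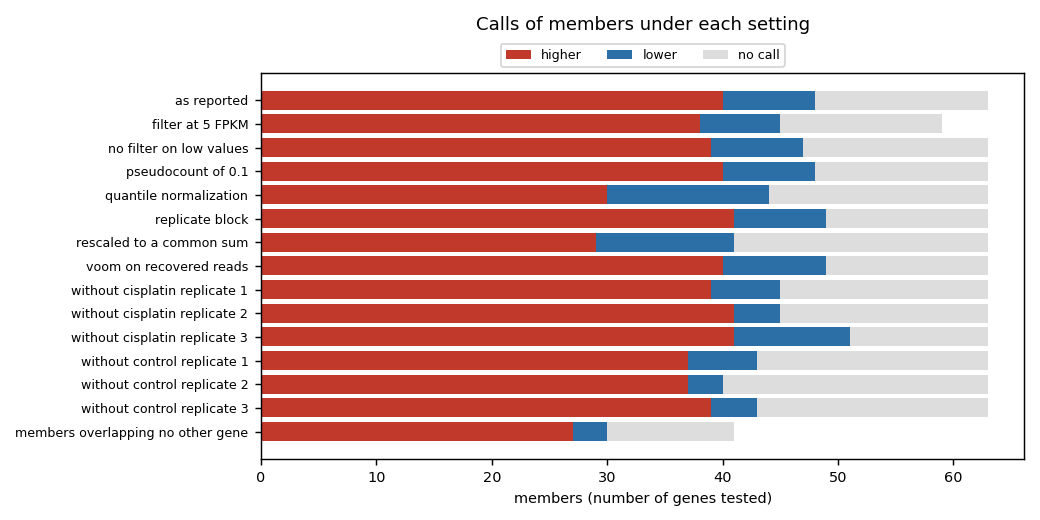
Number of splicing genes called higher, lower or not called under each processing setting (x axis: genes; y axis: setting, with the reported fit at the top). The higher calls stay between 27 (of the 41 genes that overlap no other) and 41, with 30 and 29 of 63 under the other 2 scalings, and the lower calls range from 3 to 14.

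The change in input RNA went with the length of the gene in the genome. Members with a RefSeq span under 10 kb had a median log2 change of 0.29, with 17 of 24 higher and 0 lower. Members of 10 to 20 kb had a median of 0.28, with 15 of 18 higher and 2 lower. Members of 20 to 40 kb had a median of 0.05, with 7 of 18 higher and 6 lower, and only 3 members were longer. A falling order was present in tested protein-coding genes at large, with medians of 0.20 under 10 kb, 0.14 from 10 to 20 kb, 0.04 from 20 to 40 kb and -0.24 above. Spearman's rho between span and log2 change was -0.313 over 63 splicing genes and -0.270 over 9777 tested protein-coding genes, a description across genes that share the same libraries. The median span was 12.5 kb for the splicing genes, against 23.98 kb for those protein-coding genes. The part of gene length in the calls was not tested.

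**Figure D4:**
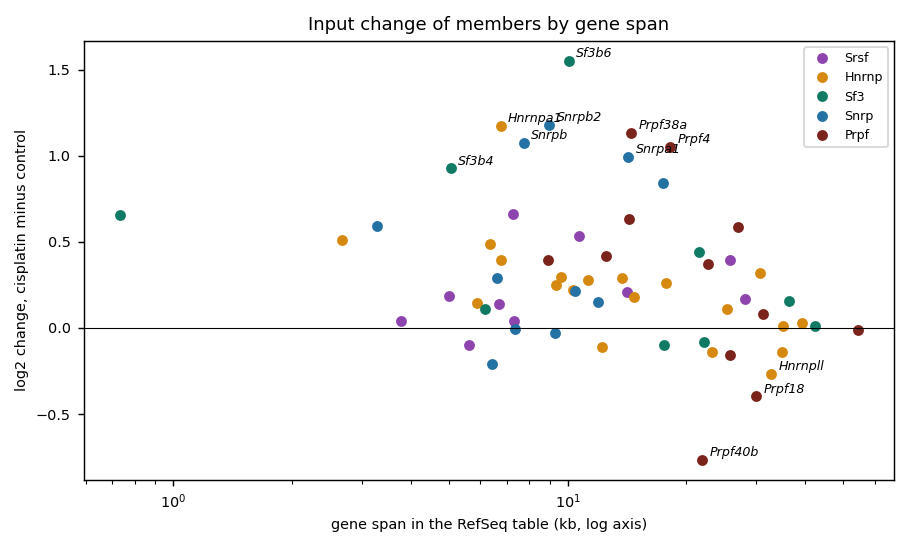
Log2 change of input RNA (y axis, cisplatin minus control) against the RefSeq gene span in kb (x axis, log scale) for 62 of the 63 splicing genes, coloured by gene name. The 8 genes at least 2-fold higher all have spans under 20 kb, and the labelled genes with decreases have spans above 20 kb.

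Other genes of RNA processing were counted from lists drawn up for the pathway. Of 54 further core spliceosome factors, 36 were higher (66.7%) and 11 lower (20.4%), against 40.1% and 41.1% of all tested genes. Ppil1, a peptidyl-prolyl isomerase of the activated spliceosome, had 16.5 ± 0.574 FPKM with cisplatin and 4.31 ± 0.294 FPKM in controls (mean ± SD, n = 3 each, as in the values that follow), while Ctnnbl1, a PRPF19-associated protein, had 6.52 ± 0.471 FPKM with cisplatin and 24.5 ± 0.674 FPKM in controls. Ddx23, the helicase also called PRP28, had 99.4 ± 4.803 FPKM with cisplatin and 46.1 ± 0.462 FPKM in controls. Of 12 genes listed as minor spliceosome factors, 7 were higher (58.3%) and 2 lower (16.7%). Among the 7 was Snrnp27 (log2 change 0.23), whose product belongs to the tri-snRNP of U4, U6 and U5. Scnm1, with the smallest adjusted p of the 12, had 4.44 ± 0.362 FPKM with cisplatin and 13.8 ± 0.230 FPKM in controls. Pdcd7, next in that order, had 5.07 ± 0.823 FPKM with cisplatin and 0.0947 ± 0.0349 FPKM in controls, and passed the filter on low values only through the cisplatin libraries. The same held for Armc7, with 3.90 ± 0.496 FPKM with cisplatin and 0.319 ± 0.157 FPKM in controls. Both are among the 7 higher genes, so that share rests in part on the filter.

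SR-related proteins and SR kinases had 12 of 24 tested genes higher (50%) and 7 lower (29.2%), against 40.1% and 41.1% of all tested genes. Scaf1 had the smallest adjusted p, with 24.8 ± 0.367 FPKM with cisplatin and 10.5 ± 0.567 FPKM in controls. Rnps1, an activator of splicing in the exon junction complex, had 195 ± 16.2 FPKM with cisplatin and 68.8 ± 2.00 FPKM in controls, and Dyrk1a, a kinase of SR proteins, 3.08 ± 0.204 FPKM with cisplatin and 10.2 ± 0.475 FPKM in controls. Other regulators of alternative splicing had 12 of 31 higher (38.7%) and 15 lower (48.4%), near the 40.1% and 41.1% of all tested genes. Ptbp2, among the 15 lower, passed the filter on low values only through the control libraries. Qk (Quaking), with the smallest adjusted p of that list, had 5.19 ± 0.319 FPKM with cisplatin and 10.6 ± 0.182 FPKM in controls. The snRNP assembly factors had 9 of 18 higher (50%) and 5 lower (27.8%). Gemin5, the subunit of the SMN complex that recognises small nuclear RNA, had 16.1 ± 0.219 FPKM with cisplatin and 7.12 ± 0.185 FPKM in controls. Of 15 factors of nonsense-mediated decay, the pathway that removes many poison-exon transcripts of SR and hnRNP genes, 11 were higher (73.3%) and 3 lower (20%). Magoh, of the exon junction complex, had 39.5 ± 2.85 FPKM with cisplatin and 15.5 ± 0.288 FPKM in controls, whereas Smg6, the endonuclease of the pathway, had 5.06 ± 0.245 FPKM with cisplatin and 12.6 ± 0.119 FPKM in controls.

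Depth and identity of the libraries bear on all of these values. Recovered fragments came to 23503412, 29280272 and 21437552 in cisplatin libraries, against 20789536, 21111362 and 19921365 in control libraries, and no splicing gene had fewer than 222 in a library. Libraries of a group correlated over tested genes at Pearson r of 0.989 to 0.995 within cisplatin and 0.995 to 0.996 within control, and at 0.833 to 0.847 between groups. Cisplatin replicate 3 was the highest of its group for 31 of the 63 genes (49.2%), against 35.7% of tested genes. Of 11 markers of ovarian surface epithelium and mesothelium, all 11 were listed, with a summed level of 3564 to 3953 FPKM with cisplatin and 2468 to 2510 FPKM in controls, led by Krt8, Krt18, Krt19 and Vim, and 5 of the 10 tested were higher. Another 4 were lower with cisplatin, namely Wt1 (12.4 ± 0.598 FPKM with cisplatin and 45.1 ± 1.08 FPKM in controls), Upk3b, Cdh2 and Lrrn4, while Krt7 reached at most 0.266 FPKM. Lrrn4 passed the filter on low values only through the control libraries. Of 9 markers of leukocytes and endothelium only Cd68 was listed, at 7.50 to 9.72 FPKM with cisplatin and 2.22 to 2.57 FPKM in controls. The part of these differences in the results above was not tested.

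The second comparison was the authors' own comparison of ac4C peaks between the treatments. The deposited table held 113 of its 19049 peaks in 48 of the 63 splicing genes (76.2%), and 65.6% of all tested genes had a peak. No header states which treatment is on top of the deposited log2 difference, so its sign is given here as deposited, without naming the treatment that had more ac4C. At the authors' adjusted p under 0.05, 66 of the 113 peaks (58.4%) had a positive and 11 (9.73%) a negative log2 difference, and 36 had no call. Over all peaks, 36.5% were positive and 9.62% were negative. Peaks of splicing genes lay in more abundant RNAs, with a median gene level of 32.9 FPKM, against 11.5 FPKM for all peaks, and 61.9% spanned more than 1 exon, against 44.0% of all peaks. The part of abundance and peak structure in the higher share of positive calls was not tested.

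Peaks were unevenly spread over the machinery. The Sf3a and Sf3b genes held 16 peaks in 6 of 9 genes, and Sf3b4, Sf3b5 and Sf3b6 had 0. Of the 7 Sm genes, 1 had a peak, Snrpe. The tri-snRNP had peaks in all 5 of its genes, with 15 peaks. Peaks were present in 9 of 10 SR genes, Srsf7 being the exception, and in 19 of 20 hnRNP genes, all but Hnrnpm. Members with a peak had a median span of 14.5 kb and a median level of 30.3 FPKM, against 8.93 kb and 17.3 FPKM for members without one.

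**Figure D5:**
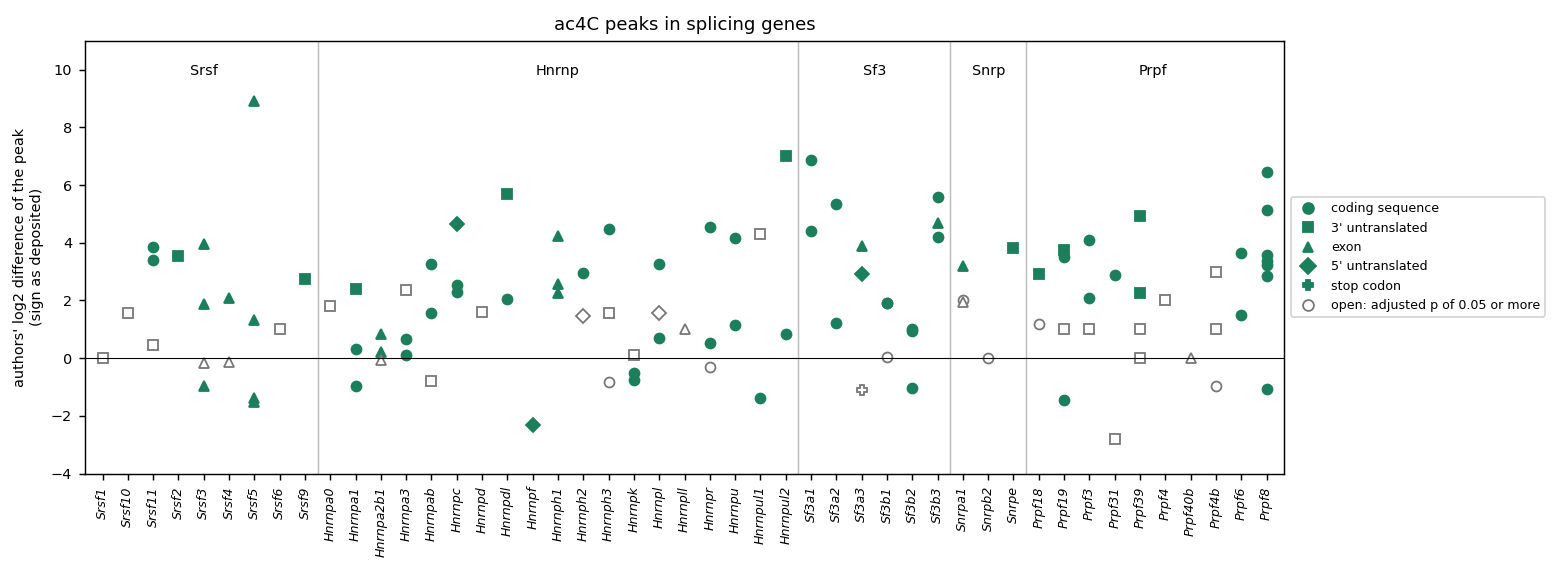
The authors' log2 difference (y axis, sign as deposited) of 112 of the 113 ac4C peaks, in 47 of the 48 splicing genes with a peak (x axis, grouped by gene name), with the marker shape giving the annotated class and open markers for an adjusted p of 0.05 or more. Filled positive markers outnumber filled negative ones by 65 to 11, and the highest, at 8.92, is in Srsf5.

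By the authors' annotation, 56 of the peaks were in coding sequence, and 41 of these were positive, 7 negative and 8 without a call. In 3′ untranslated regions 10 of 29 were positive, 0 negative and 19 had no call. Peaks annotated only as exon were positive in 13 of 22 (59.1%, against 27.4% of all exon peaks) and negative in 3 (13.6%, against 8.89%). Of the 5 peaks in 5′ untranslated regions 2 were positive and 1 negative, and over all such peaks 26.7% were positive and 7.14% negative. Over all peaks, 45.5% of those in coding sequence were positive, against 73.2% in the splicing genes, and in 3′ untranslated regions the shares were 27.4% over all peaks and 34.5% in the splicing genes. Negative shares in coding sequence were close, at 10.4% over all peaks and 12.5% in the splicing genes. In 3′ untranslated regions 8.84% of all peaks were negative, against 0 of the 29 in the splicing genes. A log2 difference of exactly 1.00 was deposited for 6 peaks of splicing genes, none of them called.

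Single genes carried several peaks with their own differences. Prpf8 had 7 peaks along its coding sequence, 6 of them positive. The log2 differences were 6.46, 3.37, 5.12, 3.56, -1.07, 3.22 and 2.83 from 5′ to 3′, and the one negative peak lay at chr11:75500571-75500929 on the plus strand of mm10. Srsf5 had 4 peaks, with log2 differences of 1.32, -1.39, -1.53 and 8.92 from 5′ to 3′, all 4 called. Its last peak, at chr12:80949997-80950207 on the plus strand, had the highest log2 difference of the set, at a log10 adjusted p of -18.9. Neighbouring peaks of the same RNA thus differed in sign.

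Both signs among called peaks were found in 6 members: Hnrnpa1, Srsf3, Srsf5, Prpf19, Prpf8 and Sf3b2. These were 6 of the 25 members with at least 2 called peaks, against 801 of 2100 genes (38.1%) over the whole table. In Hnrnpa1, whose input RNA was 2.26-fold higher with cisplatin, the peak at chr15:103240432-103241931 had a log2 difference of -0.981 and a log10 adjusted p of -434, the lowest value of the table, which 37 peaks shared. The next peak of Hnrnpa1, at chr15:103242233-103244326, had a log2 difference of 0.305, and the one in the 3′ untranslated region had 2.40. Only negative calls were found in Hnrnpf (log2 difference -2.30, in the 5′ untranslated region), Hnrnpul1 (-1.38) and Hnrnpk (-0.517 and -0.748), and only positive ones in 29 members.

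In the hnRNP genes, a peak in the 3′ untranslated region of Hnrnpul2 had a log2 difference of 6.99 (authors' adjusted p = 5.01e-64). One in the 3′ untranslated region of Hnrnpdl had 5.70, nearer the threshold (authors' adjusted p = 0.0126). In the Sf3a and Sf3b genes, the first peak of Sf3a1, at chr11:4167702-4171232 on the plus strand, had 6.85, and a coding peak of Sf3b3 had 5.58. The lowest called peaks of these genes were in the coding sequence of Sf3b2, at -1.04 and 0.924. Sf3a1 had no call in input RNA. The Srsf genes reached 8.92 in the last peak of Srsf5 and 3.96 in Srsf3, the latter at an authors' adjusted p of 0.0269. The Prpf genes reached 6.46 in Prpf8, and their lowest called peaks were in Prpf19 (-1.45) and Prpf8 (-1.07). Snrpe and Snrpa1 had the 2 called peaks of the Snrp genes, with 3.83 and 3.20.

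Calls of peaks and of input RNA are given side by side, since both rest on the same input libraries. Among 78 peaks in the 30 genes with a peak that were higher in input, 50 were positive (64.1%) and 7 negative (8.97%). Among 17 peaks in the 8 lower genes, 7 were positive and 2 negative, and among 18 peaks in the 10 genes with no call, 9 were positive and 2 negative.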

How the data were processed

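RNA of ID8 cells was depleted of ribosomal RNA, fragmented, split into input and ac4C IP, and made into strand-specific libraries, per the labels' protocols. Tools per the submitters' processing notes were HISAT2, HOMER, FastQC and fastp, without versions, on mm10. The peak caller, annotation and strand setting were not given in the sources used here. Values deposited by the authors were FPKM per gene and input library, with log2 fold changes and p-values. Their peak table holds, per the file headers, a fold enrichment ratio, a log2 difference between treatments, and log10 p scores; it has no value per library.

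A gene entered the test with 1 FPKM or more in at least 3 of the 6 input libraries, and testing was done on log2(FPKM + 1) with limma 3.58.1 in R 4.3.3 (lmFit, eBayes with a trend, Benjamini-Hochberg over all 11449 genes, threshold 0.05), which gave every adjusted p of input RNA. Log2 changes on this scale understate those of low genes. Whole fragments were recovered from FPKM steps for 14850 of 14852 genes (tolerance 0.0001), and voom on them called 9438 of 11447 genes. Peaks were called at the authors' adjusted p of 0.05. Gene spans and promoters come from RefSeq (GRCm38.p6). Python 3.11.15, numpy 2.4.6, pandas 2.3.3 and matplotlib 3.10.9 did the rest.

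1 member is included in the counts and not reported here by itself. Members, lists, tests and motifs were chosen with earlier results of these data known. Values in every library were given by rule for the 3 highest and 3 lowest called members and the most abundant member of each name group, 31 in all, and for others named beside them; peaks were named as the 2 highest and 2 lowest called of each name group, and further ones after their values were seen. From each list the 1 to 3 genes with the smallest adjusted p were named. Deviations of same-numbered replicates correlated at 0.097, -0.116 and 0.043, so no strong shared deviation was seen. With 3 libraries a group these values cannot settle whether the numbers paired the samples, and the main fit left the number out. Alternatives were another pseudocount, other filters, quantile normalization, a common FPKM sum, voom, a replicate block, leaving out each library and, added after seeing the data, leaving out members that overlap another gene.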

Additional observations from a re-analysis of the deposited data

How the results depend on the processing

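Of the 31 members named by rule (the 3 highest and 3 lowest called and the most abundant of each name group), 20 kept their direction and call under all alternatives run, and 0 changed direction; 25 of the 40 higher and 3 of the 8 lower calls held under every alternative. Scaling moved the most. Quantile normalization gave 14 lower members and a median log2 change of 0.10, with 4 Srsf genes higher and 2 lower, 8 Hnrnp genes higher, 2 Sf3 and 2 Snrp genes lower. A common FPKM sum gave a median of 0.12, with 3 Srsf genes higher and 1 lower, 2 Sf3 genes lower and 1 Snrp gene lower. Voom on recovered fragments called 1 Snrp gene lower. Leaving out each library gave 3 to 10 lower members (4 without cisplatin replicate 2 or control replicate 3, 3 without control replicate 2), medians from 0.19 to 0.28, 0 to 4 lower Hnrnp genes, and 0 to 1 lower genes in each of Sf3, Snrp and Srsf. Among the 41 members that overlap no other gene, 27 were higher and 3 lower, with 3 Sf3 and 5 Prpf genes higher, 1 Hnrnp and 0 Sf3 genes lower; here fewer genes were counted. Requiring an absolute log2 difference of at least 1 left 7 negative peaks. The cause of the other shifts was not tested.

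The labels do not state whether the replicate numbers paired the samples. A fit with the replicate number as a block called 41 members higher and 8 lower, with 1 Snrp gene, Snrpe, lower; Hnrnpr lost its call and Sf3a2 gained one.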
